A study of Mus musculus with 2 samples.

Results

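The miR-124, miR-128, miR-138 and miR-129 genes form 4 families of neuronal microRNAs (miRNAs), each made from more than 1 place in the mouse genome with the same main mature RNA. The 9 genes Mir124a-1, Mir124a-2, Mir124a-3, Mir128-1, Mir128-2, Mir138-1, Mir138-2, Mir129-1 and Mir129-2 were taken by symbol, through Ensembl IDs matched to GENCODE M21. All 9 had a row among the 1973 genes counted. Small RNA below 30 nt was sequenced from the forebrain of B6NCrl mouse embryos at day 12.5 of gestation, in 1 group for which no treatment or genetic change is labelled. Replicate 2 pooled 68 embryos and replicate 1 pooled 120 embryos of both sexes, and each pool gave 1 library. Both pools carry the same donor record, and pool, dissection and library cannot be told apart, so a p-value between them compares these 2 libraries and no conditions. No other tissue, age or genotype is analysed here, so levels, the balance between copies and the agreement of the pools are what the data can show.

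A miRNA gene is transcribed as a hairpin, from which enzymes cut a 5p and a 3p arm of about the length of the reads. The arm that is kept guides silencing of messenger RNAs that match its seed, the bases from position 2 to position 8. MiR-124 is the best known neuronal miRNA: it accumulates as progenitors become neurons and represses the splicing regulator Ptbp1. MiR-128 is abundant in brain and restrains neuronal excitability, miR-138 limits the size of dendritic spines in rat neurons through the enzyme Lypla1, and miR-129 takes part in the scaling of synapses. Forebrain at this age holds mostly dividing progenitors beside the first neurons.

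The sequences decide which reads can be given to 1 copy, so they are shown first, for the 6 genes found in the RefSeq table (GRCm38.p6, the build of mm10). Mir124a-1, Mir124a-2 and Mir124a-3 had no entry there. In the mature RNAs, written 5′ to 3′, capitals mark the seed.
mmu-miR-128-3p, from both miR-128 copies: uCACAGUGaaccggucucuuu
mmu-miR-128-1-5p, from Mir128-1: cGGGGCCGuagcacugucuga
mmu-miR-128-2-5p, from Mir128-2: gGGGGCCGaugcacuguaagaga
mmu-miR-138-5p, from both miR-138 copies: aGCUGGUGuugugaaucaggccg
mmu-miR-138-1-3p, from Mir138-1: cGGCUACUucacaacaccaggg
mmu-miR-138-2-3p, from Mir138-2: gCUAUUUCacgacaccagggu
mmu-miR-129-5p, from both miR-129 copies: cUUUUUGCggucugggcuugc
mmu-miR-129-2-3p, from Mir129-2: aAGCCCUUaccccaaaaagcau

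Each of these families thus had 1 arm listed with the same letters for both copies, 3p in miR-128 and 5p in miR-138 and miR-129. The opposite arm separated the copies to differing degrees. Laid without gaps on the other hairpin, mmu-miR-128-1-5p differed from Mir128-2 at 5 of 21 bases, yet both miR-128 5p arms have the same seed. The arm mmu-miR-138-1-3p differed from Mir138-2 at 2 of 22 bases, and the seeds of the miR-138 3p arms are not the same. The arm mmu-miR-129-2-3p differed from the Mir129-1 hairpin at 1 of 22 bases, C20U, where positions count from 1 at the 5′ end of the arm and the second letter is that of Mir129-1.

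In the hairpins of the same genes, capitals mark bases that lie in a stretch of at least 20 bases found in the other copy, which a read of that length could not place.
Mir128-1, chr1:128202361-128202430, + strand: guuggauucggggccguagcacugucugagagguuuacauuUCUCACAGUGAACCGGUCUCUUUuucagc
Mir128-2, chr9:112118636-112118711, - strand: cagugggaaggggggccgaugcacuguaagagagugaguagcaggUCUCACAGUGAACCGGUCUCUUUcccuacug
Mir138-1, chr9:122682876-122682974, + strand: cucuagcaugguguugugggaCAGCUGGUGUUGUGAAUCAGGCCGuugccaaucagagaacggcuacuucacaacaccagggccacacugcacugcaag
Mir138-2, chr8:94324311-94324381, + strand: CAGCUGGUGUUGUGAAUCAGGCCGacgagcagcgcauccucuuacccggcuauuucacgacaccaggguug
Mir129-1, chr6:29022619-29022691, + strand: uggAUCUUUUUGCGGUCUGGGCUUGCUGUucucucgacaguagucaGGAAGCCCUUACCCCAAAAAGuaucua
Mir129-2, chr2:94241364-94241453, - strand: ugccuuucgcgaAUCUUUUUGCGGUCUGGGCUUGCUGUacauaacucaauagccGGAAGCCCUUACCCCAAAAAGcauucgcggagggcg

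The miR-128 and miR-138 copies shared 1 stretch each, of 23 and 24 bases, which holds the common mature RNA. The miR-129 copies shared a stretch in each arm, of 26 and 21 bases, which left 45 of 54 windows of 20 bases to Mir129-1 and 62 of 71 to Mir129-2. These windows run over the whole hairpin, also outside the mature RNAs. The listed mmu-miR-129-5p lay wholly in a shared stretch, and mmu-miR-129-2-3p did so for 19 of its 22 bases. By windows of 20 bases the miR-124 hairpins shared the most of the 4 families, while by covered length they overlapped with miR-129. Shared stretches covered 91.2% of Mir124a-3, 74.1% of Mir124a-1 and 61.5% of Mir124a-2, against 64.4% of Mir129-1, 52.2% of Mir129-2 and 24.2% to 33.8% of the miR-128 and miR-138 hairpins. Of windows of 20 bases, 49.0% in Mir124a-3, 37.9% in Mir124a-1 and 33.3% in Mir124a-2 occurred in another miR-124 hairpin, against 6.25% to 9.62% in the miR-128 and miR-138 genes and 12.7% to 16.7% in the miR-129 genes. Outside its own family no member shared such a stretch with another annotated hairpin, except the miR-129 genes with Mir129b, which lies on the opposite strand of Mir129-2 and had no row. Hairpins alone were compared, and uniqueness over the rest of the genome was not examined.

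**Figure D1:**
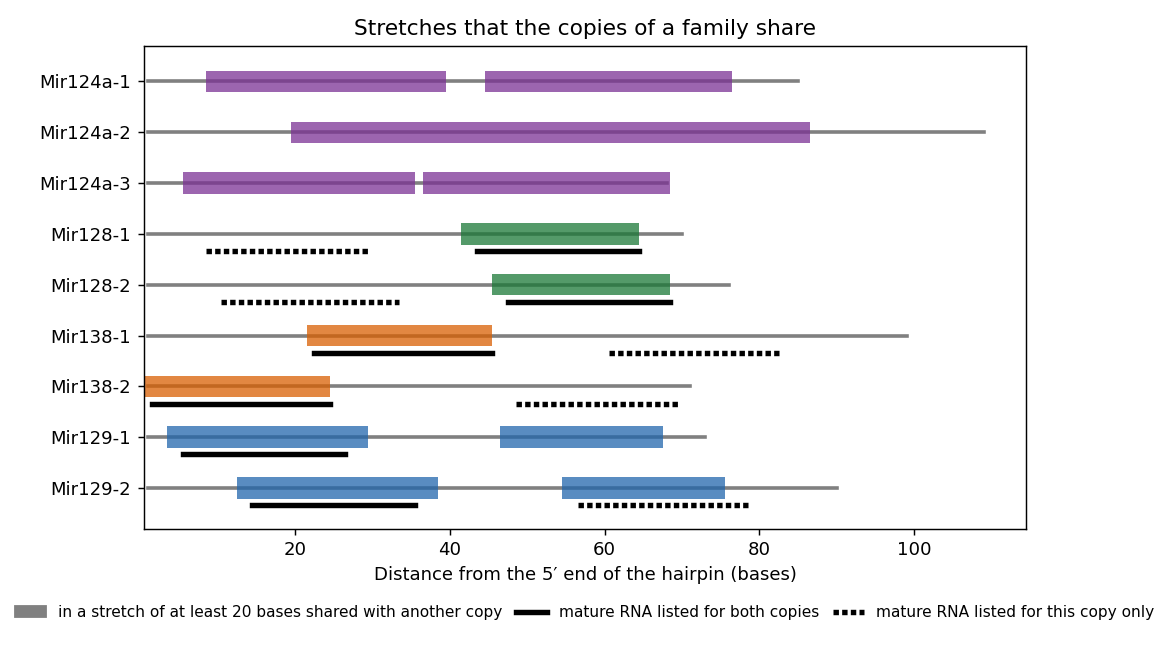
Each grey line is a hairpin of 1 gene, drawn to scale in bases from its 5′ end. Coloured blocks are bases covered by stretches of at least 20 bases shared with another copy of the family, joined where such stretches meet. Solid black bars are mature RNAs listed for both copies and dotted bars those listed for 1 copy. The blocks cover 91.2% of Mir124a-3 but 32.9% of Mir128-1, and in the miR-129 genes they reach both arms. Mature RNAs are drawn for the 6 genes with RefSeq entries.

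The copies stand in different surroundings, per GENCODE M21. Mir128-1 lies in an intron of the protein-coding gene R3hdm1 on chromosome 1, and Mir128-2 in an intron of Arpp21, a brain-enriched phosphoprotein gene, on chromosome 9. Both are read from the strand of their host. Mir124a-1 (chr14:64590657-64590741) lies in an exon of the non-coding host gene Mir124a-1hg, the hairpin of Mir124a-2 (chr3:17795662-17795770) overlaps an exon of Mir124-2hg, and Mir124a-3 (chr2:180894040-180894107) overlaps the start of the non-coding gene Gm27032. Mir138-1 lies in an exon of the pseudogene transcript Gm47135, Mir138-2 in an exon of the non-coding gene C78859, Mir129-1 in an exon of the non-coding gene Gm3294 and Mir129-2 in an intron of Mir670hg. Host transcripts were not measured in these libraries.

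The libraries held 11154304 reads in replicate 2 and 11104730 in replicate 1, and 4397107 and 4333194 of these were counted for a gene in the gene-strand column. Reads that matched several places were not given to any gene, and they made up 4224434 reads or 45.5% of mapped reads in replicate 2 and 4213961 reads or 46.0% in replicate 1. Levels are counts per 1000000 assigned reads (CPM), where 3 reads, the floor for a gene at 0, stand for 0.682 CPM in replicate 2 and 0.692 in replicate 1. Of the neural marker genes with a row, 7 of 9 reached 10 reads in both libraries, and the summed level of the list was 47991 CPM in replicate 2 and 49806 in replicate 1. The list holds the 3 miR-124 genes under study, and the exceptions were Mir124a-1 and Mir124a-3. Most of the sum came from Mir149 and Mir92b, with means of 20565 and 19620 CPM. Marker miRNAs of the Hox clusters, used behind the forebrain, summed to 176 and 189 CPM, and those of muscle and liver to 34.3 and 13.6 CPM. The endothelial marker Mir126a stood at 21180 and 16564 CPM, and blood markers summed to 675 and 680 CPM, with Mir451a lower and Mir144, Mir223 and Mir155 higher in replicate 2. Mural and mesenchymal markers summed to 15695 and 12983 CPM, and epithelial markers to 10008 and 13628 CPM. The libraries thus carried markers of other tissues beside the neural ones.

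Of the 9 members, 7 reached at least 10 reads in both libraries, against 20.4% of all 1973 genes in the tables. The exceptions were Mir124a-1 and Mir124a-3. Of other miRNA genes listed as neural and described below, all 16 multi-copy genes with a row and all 10 genes of 1 copy reached it. Detection was thus not particular to the members. Together the 9 genes held 5258 reads in replicate 2 and 4636 in replicate 1, or 0.113% ± 0.00890 of assigned reads (SD, n = 2). Reads matching several places were 803 and 909 times as many as these, and how many of them came from the shared mature RNAs of these families cannot be read from gene counts. Each level is therefore one of reads given to 1 copy, and it can understate each family by an unknown amount.

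MiR-138 had the most assigned reads of the 4 families, at 561 CPM in replicate 2 and 548 in replicate 1. MiR-128 followed with 435 and 399 CPM, miR-129 with 189 and 113 CPM, and miR-124 came last with 10.7 and 10.2 CPM. The family best known as a neuronal marker was thus the one with the fewest assigned reads, and also the one whose hairpins share the largest part of their 20-base windows. Whether the sharing sets its place was not tested.

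By gene, Mir138-1 stood at 344 CPM in replicate 2 and 336 in replicate 1, or rank 161 of 1973. Mir138-2 stood at 217 and 212 CPM, rank 183, below Mir138-1 in both libraries. Among genes with a row, Mir669l, Mir770 and Mir328 were nearest to Mir138-1 in mean CPM over the 2 libraries. The miR-138 pair thus varied little between the libraries, by 5.71 CPM for Mir138-1 and 3.45 CPM for Mir138-2 (SD, n = 2).

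Mir128-1 stood at 261 CPM in replicate 2 and 234 in replicate 1, or 247 ± 19.0 CPM (SD, n = 2) and rank 175. Mir128-2 stood at 174 and 165 CPM, or 169 ± 6.99 CPM and rank 196. By assigned reads the R3hdm1 copy was thus the higher in both libraries, and the ranges of the copies did not overlap. The mature RNA common to both copies lies wholly in the shared stretch. This order therefore need not be that of the whole output of the copies. Nearest in level to Mir128-1 were Mir451a, Mir505 and Mir224.

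Mir129-2 stood at 153 CPM in replicate 2 and 91.6 in replicate 1, or 122 ± 43.4 CPM (SD, n = 2) and rank 220. Mir129-1 stood at 35.5 and 21.2 CPM, or 28.4 ± 10.1 CPM and rank 277. Both copies were high in the same library, so their order held in each library although neither level was steady. Nearest in level to Mir129-2 were Mir668, Mir217 and Mir338.

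The miR-124 copies were read a few times each. Mir124a-2 had 31 reads in replicate 2 and 24 in replicate 1, or 6.29 ± 1.07 CPM (SD, n = 2) and rank 347. Mir124a-3 had 10 and 9 reads, or 2.18 ± 0.139 CPM and rank 433, and Mir124a-1 had 6 and 11 reads, or 1.95 ± 0.830 CPM and rank 443. Mir124a-2 was above the other copies in both libraries, while the ranges of Mir124a-3 and Mir124a-1 overlapped and their order differed between the libraries. Nearest in level to Mir124a-2 were Mir3070a, Mir3060 and Mir6958.

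**Figure D2:**
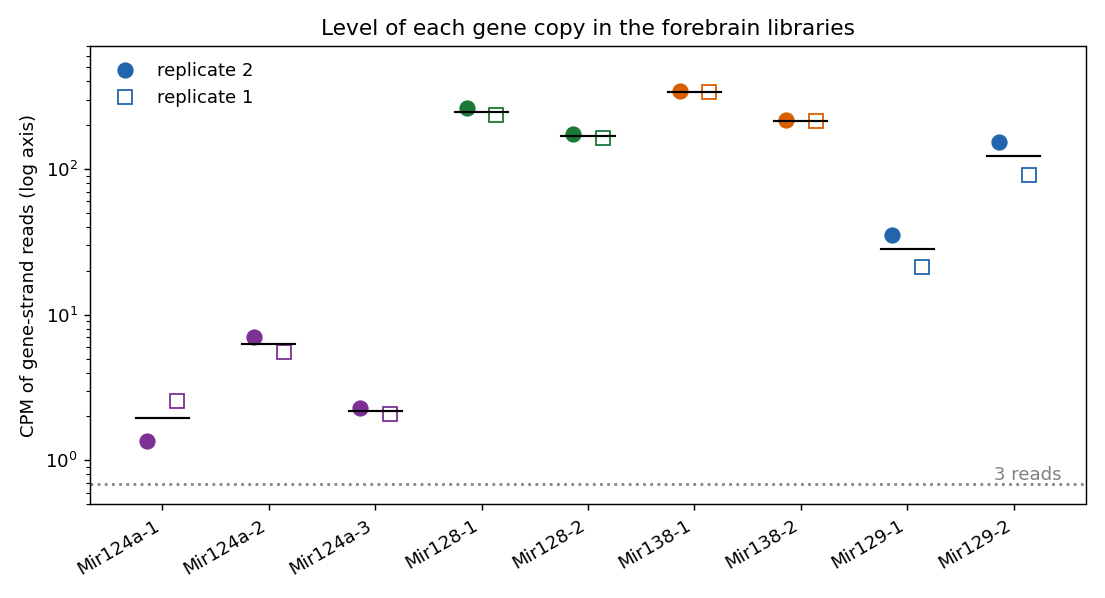
CPM of gene-strand reads on a log axis for each of the 9 genes, with replicate 2 as a filled circle, replicate 1 as an open square, the mean as a black line and the level of 3 reads as a dotted line. Mir138-1 is highest at 344 and 336 CPM, the miR-124 copies lie below 10 CPM, and both miR-129 copies are higher in replicate 2.

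Across the 9 genes, only Mir124a-3 and Mir124a-1 were neighbours in the order of mean CPM whose ranges over the libraries overlapped. With 2 libraries an exact paired permutation test cannot go below a two-sided p of 0.5, so no order of levels was tested. Reads of miRNAs are about as long as the mature RNA, so CPM were not divided by hairpin length. Per base of hairpin, Mir128-1 at 3.73 CPM in replicate 2 and 3.34 in replicate 1 could not be told from Mir138-1 at 3.48 and 3.40 CPM, while the others kept their places except that Mir138-1 and Mir128-1 changed order by the mean, 3.44 against 3.53 CPM.

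The leading copy of a family was chosen as that with most assigned reads over both libraries, so its lead follows from the choice. Its share describes the size of that lead. Reads of the shared mature RNA that match several places are not in these shares. Mir138-1 held 61.3% of miR-138 reads in replicate 2 (exact Clopper-Pearson 95% interval 59.4% to 63.3%) and 61.3% in replicate 1 (59.3% to 63.3%), which is 1.59 times the reads of Mir138-2 in both libraries. Mir128-1 held 59.9% of miR-128 reads in replicate 2 (57.7% to 62.1%) and 58.7% in replicate 1 (56.4% to 61.0%). In both families the intervals of the copies did not overlap in either library. With 2 copies the interval of the other copy mirrors that of the leading copy, so this adds nothing to the intervals given. Such intervals cover counting error only, since no molecular identifiers are described.

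Mir129-2 held 81.2% of miR-129 reads in replicate 2 (exact Clopper-Pearson 95% interval 78.4% to 83.8%) and 81.2% in replicate 1 (77.4% to 84.6%). Its reads were 4.31 times those of Mir129-1 in replicate 2 and 4.32 times in replicate 1. The shares of Mir129-2 thus differed by 0.00395 percentage points in libraries whose miR-129 level differed by 1.67-fold. That is far less than the width of either interval, so the balance is known only to within those intervals.

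Mir124a-2 held 66.0% of miR-124 reads in replicate 2 (exact Clopper-Pearson 95% interval 50.7% to 79.1%) and 54.5% in replicate 1 (38.8% to 69.6%). Mir124a-3 held 21.3% and 20.5%, and Mir124a-1 held 12.8% and 25%. With 47 and 44 reads for the whole family, the interval of Mir124a-2 lay above those of the other copies in replicate 2 and overlapped that of Mir124a-1 in replicate 1. Counted on both strands, Mir124a-2 and Mir124a-3 had 31 reads each in replicate 2, and 24 against 19 reads in replicate 1, so the lead of Mir124a-2 was lost in replicate 2 and kept in replicate 1.

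**Figure D3:**
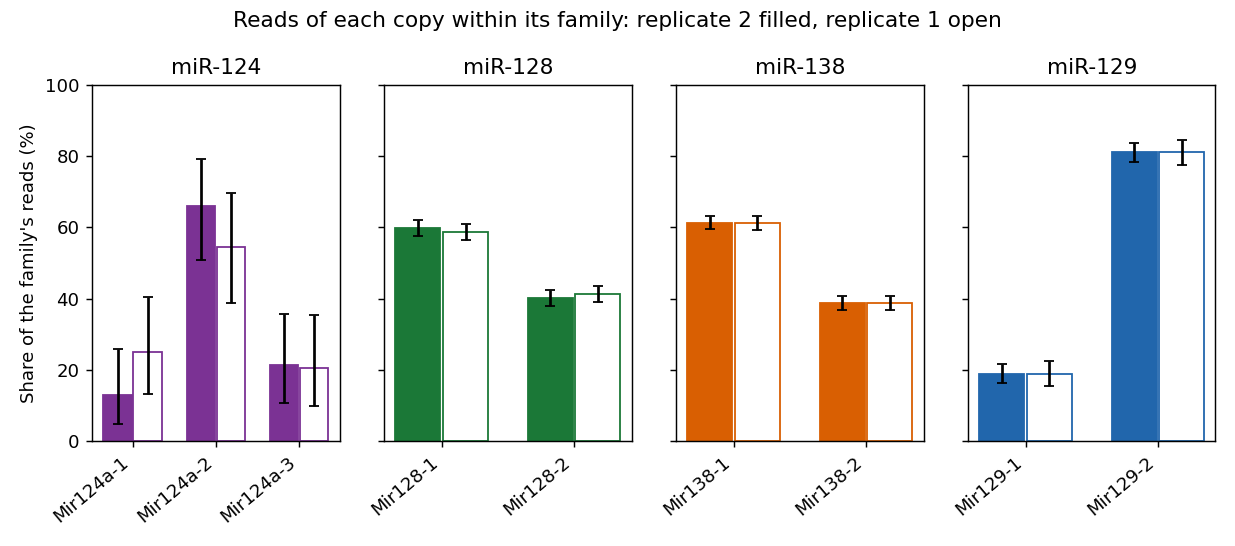
Share of the assigned reads of a family held by each copy, in percent, with replicate 2 as a filled bar and replicate 1 as an open bar. Error bars are exact 95% binomial intervals of 1 library. Mir129-2 holds 81.2% in both libraries, and Mir128-1 and Mir138-1 hold 58.7% to 61.3%, while the intervals of the miR-124 copies are wide.

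The balance of copies was compared between the libraries by a two-sided Fisher's exact test, with Benjamini-Hochberg adjustment over 26 sets of genes. These are all sets of 2 or 3 miRNA genes linked by shared mature RNAs and with at least 10 reads in each library. Genes were linked by mature RNAs in RefSeq, directly or through another gene of the set. The miR-124 genes, without RefSeq entries, were added as a set by family. None of the 4 families passed, with adjusted p of 0.992 for miR-124 and 1 for miR-128, miR-138 and miR-129, and unadjusted p of 0.291, 0.458, 1 and 1. Over all sets 7.69% passed, the Mir181a and Mir219a sets. A p above the threshold does not show that the balance was the same, and for miR-124 the difference of 11.4 percentage points lies within wide intervals. In the 22 other sets the leading copy held a median of 82.3% of reads, from 54.0% to 100% as means over the libraries, against 59.3%, 60.3%, 61.3% and 81.2% in the miR-128, miR-124, miR-138 and miR-129 families. The miR-9 genes, another neuronal family made from several places, were among the most uneven, with 99.2% of the reads in Mir9-3 in replicate 2 and 99.3% in replicate 1, against Mir9-2, and Mir9-1 had no row.

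**Figure D4:**
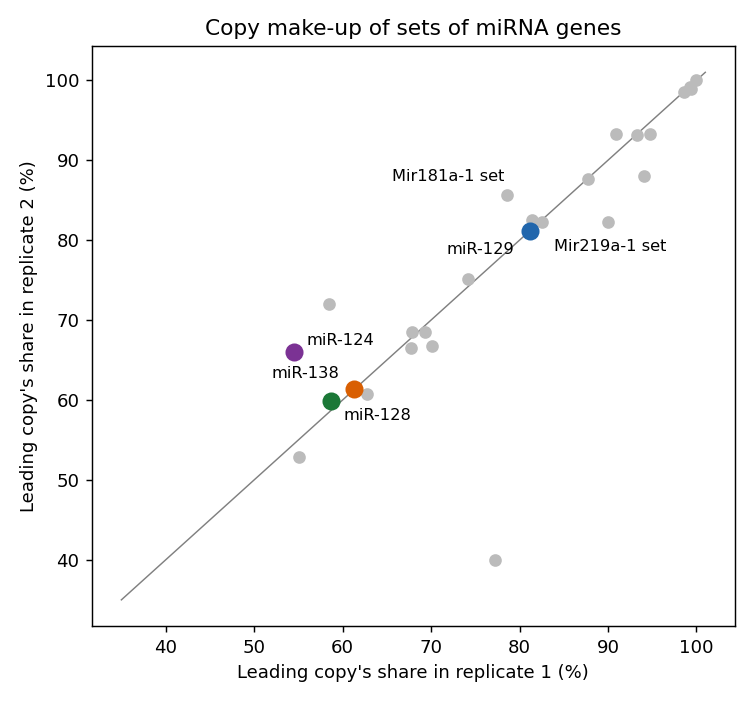
Share of reads held by the leading copy in replicate 2 against replicate 1, in percent, for 26 sets of miRNA genes linked by shared mature RNAs. Coloured points are the miR-124, miR-128, miR-138 and miR-129 families, grey points are other sets, and the line marks equal shares. MiR-128, miR-138 and miR-129 differ by at most 1.21 percentage points between the libraries, miR-124 with under 50 reads lies 11.4 percentage points above it, and the labelled grey points are the sets that passed Fisher's test.

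More of the genes with a shared arm and an arm of their own were detected than of those whose listed arms were all shared. Of 50 genes in the RefSeq table with a shared arm and an own arm, 39 or 78.0% had at least 10 reads in both libraries, against 8 of 31 or 25.8% of genes with no arm of their own and 317 of 835 genes that share no arm. Mir128-1, Mir128-2, Mir138-1, Mir138-2 and Mir129-2 belong to the first class and all were detected. Mir129-1 is listed with its shared arm alone and was detected too. The classes are a description, since the table does not list every arm, and whether an own arm bears on detection was not tested.

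By median, 2 lists of other miRNAs taken as neural had more assigned reads than the members. The lists were chosen with earlier results of these data known. Of 16 genes with a row in a list of other multi-copy neural miRNAs, all reached 10 reads in both libraries, with a median of 526 CPM, against a median of 122 CPM over the 9 members. The 16 ran from 5.61 CPM for Mir9-2 to 4223 CPM, against 1.95 to 340 CPM over the members, and were led by Mir181b-2 at 4223 ± 389 CPM, Mir181a-1 at 3774 ± 130 CPM, Mir125b-1 at 2298 ± 33.2 CPM and Mir125b-2 at 1038 ± 12.6 CPM (SD, n = 2). Of 10 miRNAs of 1 copy listed as neural, all were detected with a median of 3044 CPM. They were led by Mir335, Mir149, Mir92b and Mir137, the last at 5207 ± 112 CPM (SD, n = 2). Mir335 alone had a mean of 77130 CPM, and whether reads of these miRNAs came from neural cells was not tested. The gene copies differ in how much of their sequence is shared, which was not corrected for, and in bulk tissue fewer cells of a type and less RNA per cell cannot be told apart.

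For 2 members a neighbouring miRNA gene within the same host genes was read too. Mir3078, 444 bases from Mir124a-1, had 63 reads in replicate 2 and 75 in replicate 1, or 15.8 ± 2.11 CPM (SD, n = 2), above Mir124a-1 in both libraries. Shared stretches covered 74.1% of the Mir124a-1 hairpin, and reads that match several places are not in its level. The part of this in the difference from Mir3078 was not tested. Mir670, 19847 bases from Mir129-2 and in the same host Mir670hg, had 1238 and 1385 reads, or 301 ± 26.9 CPM. By Fisher's exact test with Benjamini-Hochberg adjustment over all genes tested, Mir670 was lower in replicate 2 by a log2 ratio of -0.18 (adjusted p = 0.00436), which is under 2-fold, while Mir129-2 was higher there. For the other 7 members the nearest annotated miRNA gene was at least 127863 bases away and had at most 1 read in each library.

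Both miR-129 genes had more reads in the library of replicate 2 than in that of replicate 1. By a two-sided Fisher's exact test on the reads of the 2 libraries, over 511 genes with at least 10 reads and with Benjamini-Hochberg adjustment over all of them, Mir129-2 was higher in replicate 2 by 0.73 on the log2(CPM + 1) scale (adjusted p = 1.33e-15) and Mir129-1 by 0.71 (adjusted p = 3.39e-04). Mir128-1 also passed the adjusted p, by 0.16 (adjusted p = 0.0366, Fisher's exact test). None of the 9 was called, since a call asked for an adjusted p under 0.05 together with a 2-fold difference, and 2.74% of all genes tested met both. So 3 of 9 members passed the adjusted p, all of them higher in replicate 2, against 32.7% of all genes tested in either direction and 20.2% higher in replicate 2. That share of the members lies near the background. These p-values treat reads as independent molecules and cover counting error only, and whether the pools or the libraries differed cannot be told apart.

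Mir138-1 and Mir138-2 differed by 0.03 each on the same scale (Fisher's exact test, adjusted p of 0.697 and 0.771), a sign that turned with another scaling, to -0.0088 and -0.010 with edgeR's TMM. Mir128-2 differed by 0.08 (adjusted p = 0.441, Fisher's exact test). The miR-124 genes had log2 ratios of 0.30, 0.09 and -0.58 for Mir124a-2, Mir124a-3 and Mir124a-1, and none passed. The median over the 9 members was 0.09, against 0.04 over all 511 genes. Epithelial marker miRNAs summed to 10008 CPM in replicate 2 and 13628 in replicate 1, with the 5 miR-200 family genes lower in replicate 2 while Mir203 at 2401 and 1916 CPM and Mir205 at 976 and 692 CPM were higher there. Mural and mesenchymal ones summed to 15695 and 12983 CPM, all 6 of them higher in replicate 2. The part of these in the miR-129 difference was not tested.

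**Figure D5:**
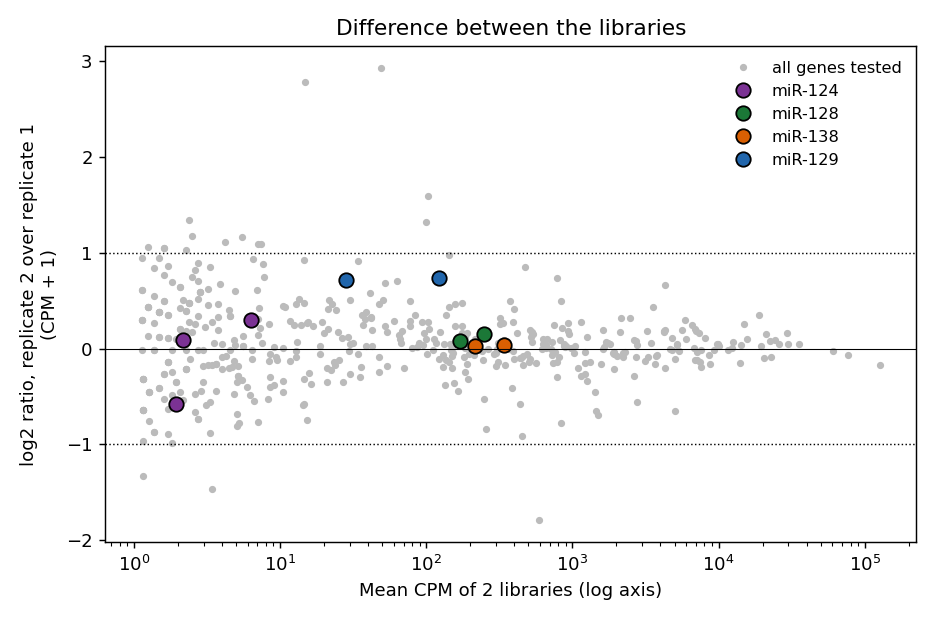
The log2 ratio of replicate 2 over replicate 1 on CPM + 1 against mean CPM on a log axis, for the 511 genes tested in grey and the 9 members in colour. Dotted lines mark a 2-fold difference. The miR-129 genes lie at 0.71 and 0.73, the miR-128 and miR-138 genes between 0.03 and 0.16, and no member passes the dotted lines.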

How the data were processed

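The deposited tables hold raw read counts per gene, not normalised, made by the authors on mm10 with annotation version M4, per the text notes in the deposit. The aligner, the counter and the strand setting were not given in the sources used here. The gene-strand column was identified from the values: it held 97.2% and 97.3% of assigned reads in replicates 2 and 1. The 4 rows that name no gene were left out of library sizes. They held 16.8% and 17.5% of reads as unmapped, 37.9% as matching several places in both libraries, 5.93% and 5.49% as lying in no feature, and 0 as ambiguous. Names and positions came from GENCODE M21, which uses the same build and matched 1894 of 1973 genes. Sequences came from RefSeq, GRCm38.p6.

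With 1 group of 2 libraries no contrast could be fitted. CPM, exact binomial intervals and Fisher's exact tests with Benjamini-Hochberg adjustment at 0.05 were computed with Python 3.11.15, NumPy 2.4.6 and SciPy 1.17.1. A call also needed a 2-fold difference. Scaling alternatives used edgeR 4.0.16 and DESeq2 1.42.0 in R 4.3.3. The Fisher step was tested on simulated data. Members and lists were chosen with earlier results of these data known. All 9 members are named, the 4 highest genes of each list where a list is described, and the 3 genes nearest in mean CPM to the leading copy of each family.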

Additional observations from a re-analysis of the deposited data

Results flagged for a closer look

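Reads opposite to Mir124a-3 numbered 31 over both libraries, 21 in replicate 2 and 10 in replicate 1, beside 10 and 9 reads on the strand of the gene. They stand in a column that the comparisons did not use and exceed the 3 reads that a count of 0 allows in each library. GENCODE M21 places no gene on the opposite strand there. Mir128-2 had 1 opposite-strand read in replicate 2, and the other 7 members had none.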

How the results depend on the processing

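The count of members with at least 10 reads in both libraries, 7 of 9, became 9 with a minimum of 1 read, 5 with 100 reads and 8 in the both-strand column or with either replicate left out. The share of the leading copy of miR-124 was 45.0% in the both-strand column. Divided by hairpin length, an alternative chosen after seeing the data, the leading shares were 51.2% for miR-124, 61.3% for miR-128, 53.2% for miR-138 and 77.8% for miR-129. With either replicate left out they ran from 54.5% to 66.0%, 58.7% to 59.9%, 61.3% to 61.3% and 81.2% to 81.2%. The share of reads held by the members was 0.0536% of all mapped reads, 0.130% without the most abundant gene, and 0.107% to 0.120% with either replicate left out. Genes called between the libraries numbered 14, and 9 with a minimum of 50 reads, where fewer genes are tested. Leaving out a library leaves no comparison between libraries. With edgeR's TMM the log2 ratios of Mir138-1 and Mir138-2 turned to -0.0088 and -0.010. The other 34 of 36 log2 ratios under 4 alternatives kept their sign. No paired analysis was possible because the series holds 1 group. With under 50 miR-124 reads per library, copy shares in that family are limited by depth.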
